A study of Drosophila melanogaster with 2 samples.

Results

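The regions described here, called sites, are 3740 weaker distal ChIP-seq peaks of the Drosophila melanogaster transcription factor Spps. Both replicates of the experiment recovered them, but they fell below the threshold for reproducible peaks. They were selected on measured values. A peak qualified if it stood in the list called on both replicates together (the pooled list) but not in the list that passed the irreproducible discovery rate (IDR), if its summit lay within 100 bp of a summit in each replicate list, and if that summit lay more than 2000 bp from the transcription start site (TSS) of any protein-coding gene. Of 30000 pooled peaks, 3260 were IDR peaks and 26740 were not. Of the peaks below IDR, 8417 (31.5%) had a summit in both replicates, and 3740 of these (12.5% of the pooled list) were distal. In the Ensembl annotation of BDGP6, 12886 distal peaks lay below IDR, so 9146 lacked a summit in at least 1 replicate. These 9146 unreplicated distal peaks and the 1245 distal IDR peaks are the sets that the sites are compared with.

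The experiment held 1 group of 2 biological replicates and no contrast between conditions. Whole embryos 0 to 12 h old came from a transgenic line that stably expresses Spps with GFP fused to its C-terminal end, and chromatin was sonicated and recovered with an antibody to GFP. All embryonic cell types were mixed, so a weak site could be bound weakly in many cells or strongly in few, and these cannot be told apart. The antibody label of both samples names Spps. The tagged protein stood in for native Spps. Library depth is unknown, because no read counts accompany the peaks. The 3 long lists end at 30000 peaks, and a site missing from one may still be bound.

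Spps, named as an Sp1-like factor in pairing-sensitive silencing, belongs to the Sp/KLF family of zinc finger proteins, which bind GC boxes and CACCC boxes. Spps is known to act at Polycomb response elements, which recruit the Polycomb group repressors to Hox and other developmental genes, together with factors such as Pho, GAGA factor, Zeste and Dsp1. Such elements often lie in introns and intergenic DNA far from promoters, as enhancers do.

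The sequences around the 5 strongest sites are shown first, because they show how unlike each other single members are. Each is the forward strand of the RefSeq sequence of dm6 (release 6) from 100 bp before to 100 bp after the summit, and capitals mark matches of the 3 listed motifs most enriched at the sites, described further on: the Mef2 site TATTTATA, the TATA box (TATAAA) and the forkhead site TAAACA, on either strand. The Mef2 and TATA strings overlap in TATAAATA, which holds both.
bab1 intron, chr3L:1089329-1089529: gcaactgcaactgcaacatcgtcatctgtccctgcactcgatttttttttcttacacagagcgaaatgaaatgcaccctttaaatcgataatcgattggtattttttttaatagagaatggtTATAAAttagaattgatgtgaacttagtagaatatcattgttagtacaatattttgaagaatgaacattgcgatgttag
SNF4Agamma intron, chr3R:21193863-21194063: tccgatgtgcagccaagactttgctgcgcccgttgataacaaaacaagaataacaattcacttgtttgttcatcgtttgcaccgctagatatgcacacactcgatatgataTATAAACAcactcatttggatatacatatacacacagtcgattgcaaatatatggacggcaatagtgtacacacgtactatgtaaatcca
Samuel intron, chr2L:11045094-11045294: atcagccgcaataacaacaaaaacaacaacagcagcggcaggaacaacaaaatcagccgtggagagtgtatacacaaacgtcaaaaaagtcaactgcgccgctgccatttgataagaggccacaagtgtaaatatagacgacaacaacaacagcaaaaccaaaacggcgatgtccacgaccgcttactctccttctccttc
intergenic, 6382 bp from CG13251, chr3L:20630717-20630917: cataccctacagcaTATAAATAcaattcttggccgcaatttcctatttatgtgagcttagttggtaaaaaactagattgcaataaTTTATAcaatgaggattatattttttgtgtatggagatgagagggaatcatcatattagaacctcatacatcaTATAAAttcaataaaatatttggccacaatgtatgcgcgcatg
intergenic, 8355 bp from Reg-2, chr3L:614824-615024: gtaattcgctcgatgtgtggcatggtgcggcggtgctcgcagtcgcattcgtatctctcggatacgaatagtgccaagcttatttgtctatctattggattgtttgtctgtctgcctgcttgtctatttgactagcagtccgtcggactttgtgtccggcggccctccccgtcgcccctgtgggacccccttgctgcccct

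The window in the bab1 intron had 1 marked stretch and 32.3% G+C, and that in the SNF4Agamma intron had overlapping TATA and forkhead strings and 38.8% G+C. The intergenic window near CG13251 had matches at 3 places and 31.8% G+C. The windows in Samuel (45.8% G+C) and near Reg-2 (55.7%) had none. A match is a description of letters, not a measured contact.

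A set of 4 further windows is shown because each holds TCAGTGCA, the 8-letter word with the smallest p against the flanks (results below). These are the 4 strongest sites with the word among those printed here, on the forward strand of the same RefSeq sequence, and capitals mark the word or its reverse complement TGCACTGA. They were chosen after their values were seen.
intron, 3335 bp from Syx17, chr3L:4400052-4400252: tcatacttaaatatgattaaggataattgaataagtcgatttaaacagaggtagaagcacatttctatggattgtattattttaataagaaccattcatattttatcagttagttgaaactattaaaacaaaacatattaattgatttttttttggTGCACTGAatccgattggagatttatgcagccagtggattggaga
intergenic, 8515 bp from Pgant2, chr2L:3435134-3435334: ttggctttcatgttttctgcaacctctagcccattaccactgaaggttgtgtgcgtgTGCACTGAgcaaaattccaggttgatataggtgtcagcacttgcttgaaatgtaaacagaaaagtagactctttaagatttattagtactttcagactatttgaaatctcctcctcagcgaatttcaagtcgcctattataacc
fz intron, chr3L:14338961-14339161: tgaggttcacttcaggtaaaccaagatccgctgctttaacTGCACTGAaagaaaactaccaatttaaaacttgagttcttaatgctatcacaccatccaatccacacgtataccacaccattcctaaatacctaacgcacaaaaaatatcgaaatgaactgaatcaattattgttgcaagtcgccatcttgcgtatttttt
intergenic, 27146 bp from mid, chr2L:5434393-5434593: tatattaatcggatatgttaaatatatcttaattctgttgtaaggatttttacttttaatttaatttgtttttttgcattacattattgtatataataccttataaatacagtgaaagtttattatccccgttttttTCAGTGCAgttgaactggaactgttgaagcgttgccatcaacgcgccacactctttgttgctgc

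The word lay at a different distance from the summit in each window, and the G+C content of the 4 windows was 27.9%, 39.3%, 36.8% and 29.9%. Their pooled peak signals were 99.8, 97.9, 97.2 and 95.9, all close to the upper limit of the set. The site in the intron of fz, which encodes a Frizzled receptor of the Wnt and planar polarity pathways, had 51.7 in replicate 1 and 38.1 in replicate 2 as peak signal. The site 27146 bp from mid, which encodes a T-box factor, had 59.2 in replicate 1 and 38.2 in replicate 2.

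The values that chose the sites are given as a description. Peak signal, the authors' value per peak relative to a control, had a median of 50.5 in the pooled list and ran between 23.8 and 100.6. In replicate 1 the matched peaks had a median signal of 28.7 (16.1 to 94.8), and in replicate 2 of 20.1 (11.8 to 73.5). The scale differs between lists, so these medians do not rank the replicates. The deposited −log10 q-value of the sites in the pooled list had a median of 1.51 (quartiles 0.824 and 2.81, range 0.198 to 3.96). It was 3.96 throughout for distal IDR peaks and had a median of 0.373 for unreplicated distal peaks. The lower quartile of the sites is a q-value above 0.05, so part of them would fail that threshold in the pooled list. Distal IDR peaks had a median pooled signal of 150.7 and unreplicated distal peaks of 29.7, so the sites lay between them. The gap to distal IDR peaks follows from the rule, since the IDR peaks are the strongest of the pooled list. That to unreplicated peaks, which reached 99.4, is not fixed by the rule. A match in both replicates is still not independent of pooled signal, because the pooled list holds the reads of both.

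Few of the sites stood high in both replicates. Of 3740 sites, 72 (1.93%) ranked among the 3260 strongest peaks of replicate 1 and 161 (4.3%) among those of replicate 2, and 1 did so in both. Within the 10000 strongest, 1022 sites (27.3%) stood in both. Log2 signal in the replicates correlated across the sites with Pearson r = 0.45 and Spearman rho = 0.44 (n = 3740), and across 1210 distal IDR peaks matched in both with r = 0.82 and rho = 0.75. Sites are not independent replicates, both lists used the same control, and the narrow range of signal among the sites was set by the rule. The median distance from the pooled summit was 12 bp to the replicate 1 summit and 17 bp to that of replicate 2, and 1453 sites (38.9%) had both within 25 bp. The peaks were 376 bp wide with the summit in the middle for 3738 of 3740 sites.

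**Figure D1:**
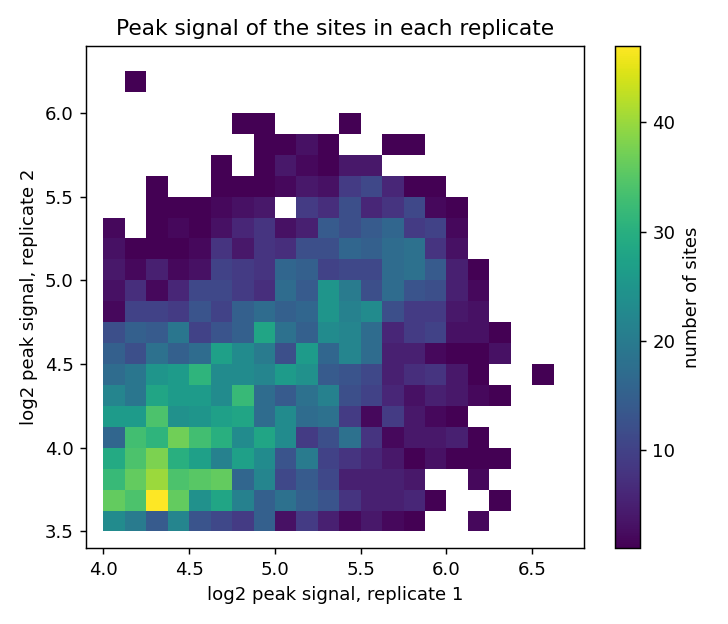
Number of weaker replicated distal sites by log2 peak signal in replicate 1 (horizontal) and replicate 2 (vertical), in squares of equal size coloured by count. Most sites sit at low signal in both replicates, and the scatter around the trend is broad (r = 0.45).

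The limits of the rule cut through a continuum. The 3 strongest sites had pooled signals of 100.6, 100.6 and 100.3, and the 3 weakest distal IDR peaks, just outside, had 100.7, 100.8 and 100.8. Of sites matched at 100 bp in 1 replicate, the 3 strongest had pooled signals of 82.8 (near tey), 78.8 (near CG43131) and 64.2 (near CAH15). Peaks just outside at 101 bp had 77.9 (near Bx), 76.7 (near CG13898) and 76.6 (near foxo). The members closest to a TSS lay 2001 bp from CG7560 and Synd and 2004 bp from tara, with signals of 76.1, 37.7 and 56.6. Peaks that just missed lay 1997 bp from Prosap and dysf and 1996 bp from RhoL, with signals of 86.6, 28.8 and 47.8.

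A chance meeting of summits is possible at any list of this length. In each replicate, 4.5% of the chromosome arms lay within 100 bp of a summit. Of the 12886 distal peaks below IDR, 8242 (64%) were matched in replicate 1 and 6482 (50.3%) in replicate 2. The pooled list holds the reads of both replicates, so these shares are not independent of it.

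The sites lay mostly in introns and intergenic DNA and rarely in coding sequence. Introns held 2165 sites (57.9%, exact 95% interval 56.3 to 59.5), intergenic DNA 1286 (34.4%, 32.9 to 35.9) and exons 289 (7.73%, 6.89 to 8.63). Of all sequence at that distance from TSSs, 48.1% is intronic, 35.4% intergenic and 16.6% exonic. Coding sequence held 67 sites (1.79%), against 4 distal IDR peaks (0.321%), 571 unreplicated peaks (6.24%) and 10.4% of distal sequence. Intervals here and below cover counting over sites only.

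The exon share differed from both other sets of peaks, and the intron share passed the test against unreplicated peaks. The exon share was 7.73% of the sites, against 5.62% of distal IDR peaks (1.37-fold, two-sided Fisher's exact test, adjusted p = 0.04 over 3 classes) and 13.7% of unreplicated peaks (0.565-fold, adjusted p = 4.4e-22). The fold against distal IDR peaks was larger with TSSs of every gene (2.41, Fisher's exact test, adjusted p = 3.3e-05). With a match asked in replicate 2 only, whatever replicate 1 showed, it was 1.83 (Fisher's exact test, adjusted p = 2.0e-07). With one asked in replicate 1 only it was 1.87 (Fisher's exact test, adjusted p = 3.8e-08). Both single-replicate settings keep every site and add peaks of the unreplicated set, whose exon share was 13.7%, so these folds say nothing more about the sites themselves. The difference was not called among the 1870 sites of higher signal (1.03-fold, Fisher's exact test, adjusted p = 0.88), over 5000 bp from a TSS (1.03-fold, adjusted p = 1) or with summits matched within 50 bp (1.37-fold, adjusted p = 0.059). The intron share was 57.9% of the sites, against 61% of distal IDR peaks (0.95-fold, exact adjusted p = 0.087) and 55.2% of unreplicated peaks (1.05-fold, adjusted p = 0.0058). The fold against distal IDR peaks lay between 0.924 and 0.937, and passed, when a match in only 1 replicate was asked.

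Intronic sites lay mostly in long introns, as intronic peaks of the other 2 distal sets did. The shortest intron that held a site had a median length of 13402 bp (quartiles 6896 and 24629 bp, 2091 sites with a host intron). The median was 14211 bp for distal IDR peaks and 13426 bp for unreplicated peaks. The first intron of a transcript held 1130 of the 2165 intronic sites (52.2%), against 447 of 759 intronic distal IDR peaks (58.9%), 2615 of 5050 intronic unreplicated peaks (51.8%) and 36% of distal intronic sequence. The median distance to the closest protein-coding TSS was 6638 bp for the sites, 5868 bp for distal IDR peaks and 6240 bp for unreplicated peaks. Per Mb of distal sequence there were 49.6 sites on arm 3L, 45.9 on 2L, 40.3 on X, 38.3 on 3R, 35.9 on 2R and 16 on chromosome 4, where 16 sites lay in all.

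Sites were spread singly and in loose groups. The median distance to the nearest other site was 3654 bp, 605 sites (16.2%) had another within 1000 bp, and the closest pair lay 199 bp apart. An IDR summit lay within 1000 bp of 290 sites (7.75%, exact 95% interval 6.92 to 8.66), against 517 unreplicated peaks (5.65%), a 1.37-fold difference (two-sided Fisher's exact test, p = 1.2e-05). Within 2000 bp the shares were 17.8% and 13.8%. The rule's match split these 2 sets, and their median pooled signals differ (50.5 and 29.7). Among the 1870 sites of higher signal the fold within 1000 bp was 1.57 (Fisher's exact test, p = 5.1e-07). The part of signal in this difference was not tested. Summits inside annotated transposable elements numbered 16 among the sites (0.428%), against 0.161% of distal IDR peaks and 0.492% of unreplicated peaks.

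DNA at the summits of the sites was rich in A and T. The 100 bp to either side of the summit averaged 38.1% G+C (SD 7.91, n = 3740 windows), and flanks of the same length centred 500 bp towards higher coordinates averaged 41.8% (SD 8.02), close to the 41.6% of all distal sequence. The summit window had the lower G+C content at 2329 sites and the higher at 1346, with 65 equal (two-sided exact sign test, p = 1.0e-59). The difference was -3.66 percentage points, and between -2.19 and -1.64 when a match in only 1 replicate was asked. Distal IDR summits averaged 34.1% against 42.1% in their flanks, and unreplicated peaks 41.3% in both.

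The G+C content followed peak strength within the sites. In 4 classes of rising pooled signal (935 sites each) the summit windows averaged 40.6%, 39.1%, 37.5% and 35.3% G+C. Their flanks averaged 41.9%, 42%, 41.2% and 42.1%. In profile, G+C was 37% in the 40 bp to either side of the summit and 43.5% in the bin centred 300 bp above it, so the trough had G+C-rich shoulders. Distal IDR peaks had a deeper trough of 30.9% and shoulders of 45.9%, and unreplicated peaks varied little, with 41% at the lowest of the 40 bp bins shown near the summit. The part of base composition in sequencing or peak calling was not tested.

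**Figure D2:**
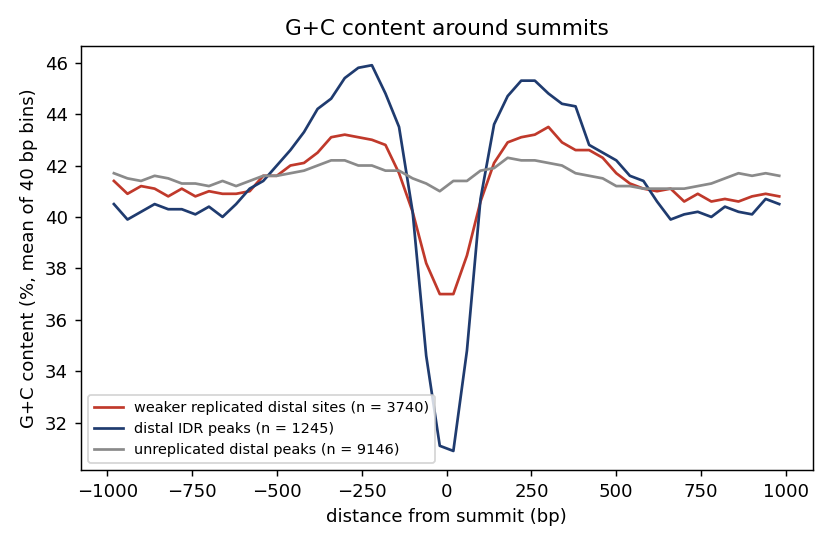
Mean G+C content (percent, vertical) in 40 bp bins by distance from the summit (bp, horizontal) for the weaker replicated distal sites, distal IDR peaks and unreplicated distal peaks. The sites reach 37% at the summit, between the 30.9% of distal IDR peaks and the nearly flat line of unreplicated peaks.

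Strings bound by Sp/KLF factors were scarcer at the sites than beside them. Of 30 listed motifs, searched as exact strings on both strands, 7 (23.3%) were less frequent at summits than in the flanks and 6 (20%) more frequent in exact McNemar tests with Benjamini-Hochberg adjustment. The Sp/KLF core (GGGCGTG or GGGCGGG) stood in 121 summit windows (3.24%) and 194 flanks (5.19%), a fold of 0.624 (exact McNemar adjusted p = 1.5e-04), and in 4.57% of all distal windows of that length. The shorter CACCC box (GGGTG) stood in 670 windows (17.9%) and 801 flanks (21.4%), a fold of 0.836 (exact McNemar adjusted p = 5.2e-04), and in 21.4% of distal windows. With a match asked in replicate 1 only, the CACCC call was lost (0.967-fold, exact McNemar adjusted p = 0.41).

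The motifs of other factors that act at Polycomb response elements differed among themselves. The Pho core GCCAT, for the DNA-binding subunit of the Pho repressive complex, stood in 1123 windows (30%) and 1357 flanks (36.3%; 0.828-fold, exact McNemar adjusted p = 9.8e-08). The GAGA site GAGAG had 840 windows and 842 flanks (22.5% each), and the Zeste site TGAGTG 401 windows and 380 flanks (exact McNemar adjusted p = 0.54). The Dsp1 site GAAAAA, for an HMG-box protein, was the exception, with 1420 windows (38%) against 1174 flanks (31.4%; 1.21-fold, exact McNemar adjusted p = 3.5e-08). Shares in all distal windows were 35.7% for GCCAT, 21.4% for GAGAG, 9.47% for TGAGTG and 30.6% for GAAAAA.

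The other motifs called higher were rich in A and T, and most called lower were rich in G and C. The TATA box (TATAAA) was in 1180 windows (31.6%) and 797 flanks (21.3%), 1.48-fold (exact McNemar adjusted p = 6.3e-22), and in 22.1% of distal windows. The Mef2 site TATTTATA, for a muscle regulator, reached the largest fold, 1.59, with 231 windows (6.18%) against 145 flanks (3.88%; exact McNemar adjusted p = 3.0e-05; distal windows 3.94%), but with summits matched within 50 bp its call was lost (1.37-fold, adjusted p = 0.066). The forkhead site TAAACA stood in 24.1% of windows and 19.1% of flanks (1.26-fold; distal windows 17.8%). The site of GATA factors, AGATAA, stood in 14.1% and 11.7% (1.21-fold; distal windows 10.9%), and the Hunchback site TTTTTTT in 22.4% and 19.4% (1.16-fold; 17.2%). Below their flanks stood the CTCF core AGGNGGC (0.669-fold; distal windows 7.54%), the ETS site CCGGAA (0.703-fold; 5.65%), the POU site ATGCAAA (0.839-fold; 8.58%) and the Su(H) site TGGGAA of the Notch pathway (0.853-fold; 11.9%).

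Of these 13 calls, 6 were kept under all 14 alternatives, those of the Sp/KLF core, Pho, Dsp1, TATA, CTCF and forkhead strings. The Hunchback call was lost under 6 of the 14. Among them were the flank towards lower coordinates (1.07-fold, exact McNemar adjusted p = 0.23), a match asked in replicate 2 only (1-fold, exact adjusted p = 1) and one asked in replicate 1 only (1.04-fold, exact adjusted p = 0.39). POU, Su(H), ETS and GATA calls were lost under 9, 6, 2 and 1 of the 14. The folds of these strings move with base composition, which differed between summits and flanks, and its part in them was not tested.

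**Figure D3:**
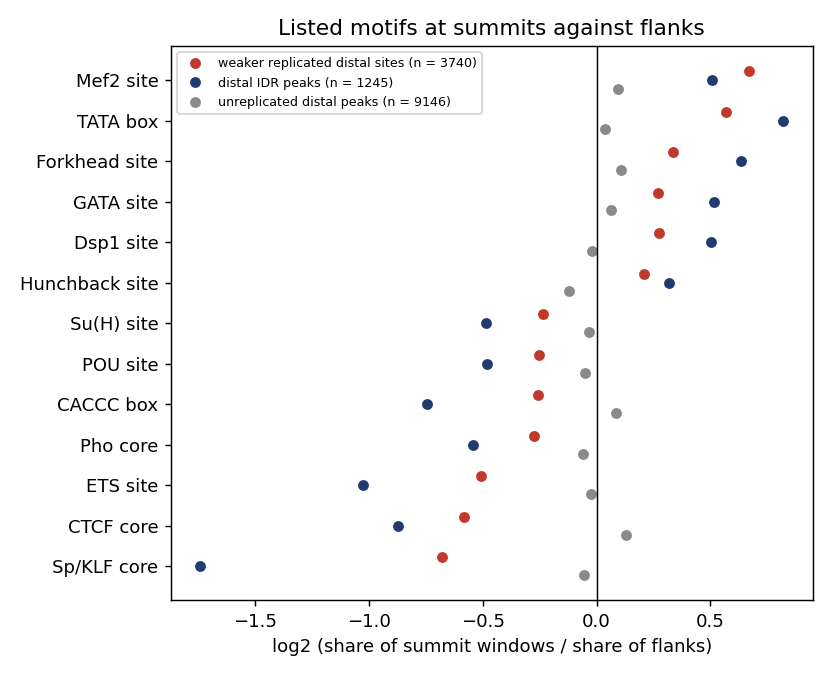
Log2 ratio of the share of summit windows to the share of flanks (horizontal) that hold each of the 13 called motifs (vertical), for the weaker replicated distal sites, distal IDR peaks and unreplicated distal peaks. Apart from the Mef2 site, the sites lie between the other sets, and for the Sp/KLF core they stand at 0.624-fold on the linear scale.

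Set against distal IDR summits, the sites held more of the G+C-rich strings and fewer of the A+T-rich ones. Of the 30 motifs, 4 (13.3%) were more frequent at the sites and 3 (10%) less frequent in two-sided Fisher's exact tests. The Sp/KLF core stood at 3.24% of the sites and 1.61% of distal IDR summits (2.01-fold, exact adjusted p = 0.01), the CACCC box at 17.9% and 13.5%, the Pho core at 30% and 24.5%, and the CAGCTG E-box at 7.14% and 4.74% (distal windows 7.72%). Lower at the sites were the TATA box (31.6% and 39.2%), the forkhead site (24.1% and 30%) and the Dsp1 site (38% and 45.3%). Among the 1870 sites of higher signal 0 of the 30 passed in either direction by the same test, with 5 at an unadjusted p under 0.05, and over 5000 bp from a TSS 1 was higher. For the Sp/KLF core these settings gave folds of 1.66 and 1.77 (Fisher's exact test, adjusted p = 0.3 and 0.24), and TSSs of every gene gave 1.86 (adjusted p = 0.057), none of them called.

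Against unreplicated distal peaks the differences ran the other way. Of the 30 motifs 7 were higher at the sites (23.3%) and 7 lower (23.3%). The Sp/KLF core had 3.24% at the sites and 4.72% at unreplicated peaks (0.685-fold, two-sided Fisher's exact test, adjusted p = 4.1e-04), a call lost with summits within 50 bp (0.775-fold, adjusted p = 0.079) and with a match in replicate 1 only (0.859-fold, adjusted p = 0.19), and the TATA box 31.6% and 23.7% (1.33-fold, adjusted p = 2.5e-18). Pooled signal differs between these sets too, with medians of 50.5 and 29.7, and its part was not tested.

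A family of related words of mixed base composition was more frequent at the sites than beside them. Among all 2080 words of 6 letters, counting a word and its reverse complement as one, 323 (15.5%) were more frequent at summits than in flanks and 531 (25.5%) less frequent in exact McNemar tests. On the flank to the other side 276 of the first and 388 of the second were called alike. Words without G or C had a median fold of 1.26 and words made only of G and C, 6 letters, of 0.68. The largest folds belonged to words with 2 to 4 letters of G or C.

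Most of the 10 words with the largest folds share runs of letters. GTGCAC was highest, in 285 summit windows (7.62%) and 133 flanks (3.56%), 2.14-fold (exact McNemar adjusted p = 2.9e-12). AGTGTA followed with 502 windows and 259 flanks (1.94-fold). GTACAC (1.93-fold) came next and ACACTG (1.91-fold) after it. CAGTGC was in 558 windows (14.9%) and 301 flanks (8.05%), 1.85-fold (exact McNemar adjusted p = 3.9e-18), and in 8.88% of all distal windows. The others were CTGTAC (1.76-fold), CACTGA (1.7-fold), AGGTAC (1.68-fold), ACAGTG (1.68-fold) and ACTGAG (1.67-fold). Of the 10, 9 were also called at distal IDR summits against their own flanks, where GTGCAC stood at 3.34-fold and CACTGA at 3.21-fold, and 7 at unreplicated peaks.

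The words scarcest at the summits relative to the flanks were rich in G and C. The lowest folds were those of TCGCGA (0.476), CCCCGG (0.477), ATCCGG (0.493), ATCCGC (0.494) and CCCAGG (0.495). CCCGGA (0.496), CGGACG (0.519), GCGTCC (0.526), CCAGGA (0.536) and CCCGGC (0.54) followed. At distal IDR summits 7 of these 10 were also called lower, and at unreplicated peaks 0 of 10 were (exact McNemar test with adjustment over all words), where 22 words were called higher and 4 lower in all. Of the 20 words named, 18 were called under all 13 alternatives. With a match asked in replicate 1 only, the folds lay nearer to 1 for TCGCGA (0.732), CCCCGG (0.737), ATCCGC (0.754) and GCGTCC (0.855, not called). With one asked in replicate 2 only the same held for CCCCGG (0.716), ATCCGG (0.746) and CCCGGA (0.766). AGGTAC was lost with summits matched within 50 bp (1.43-fold, exact McNemar adjusted p = 0.12) and GCGTCC under 3 settings.

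Longer words gave larger folds. The 8-letter words were examined after the shorter ones were seen, and 223 of 32896 (0.678%) were higher and 52 (0.158%) lower at summits than in flanks. TCAGTGCA had the smallest p, with 138 summit windows (3.69%, exact 95% interval 3.11 to 4.34) against 25 flanks (0.668%), 5.52-fold (exact McNemar adjusted p = 1.3e-15). With a match asked in replicate 2 only the fold was 3.4, and with one asked in replicate 1 only it was 2.92, called in both cases. The flanks on the other side held it 40 times, and 0.815% of all distal windows had it. Other words had larger folds from fewer windows. CTCAGTGC was in 104 windows and 12 flanks (8.67-fold). CACTGAGA was in 127 windows and 22 flanks (5.77-fold), and CAGTGCAC in 117 windows and 19 flanks (6.16-fold). Of 50 called words with at least 3 letters of G or C, 37 shared 5 letters in a row with TCAGTGCA on either strand, and 149 of the 223 had at most 1 letter of G or C.

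The same words stood in other sets of peaks in differing shares. At distal IDR summits TCAGTGCA was in 69 windows (5.54%) and 12 flanks, and CACTGAGA in 94 windows and 1 flank. At unreplicated distal peaks TCAGTGCA was in 161 windows (1.76%) and 98 flanks, and at 2846 replicated peaks below IDR within 500 bp of a TSS in 30 windows (1.05%) and 15 flanks. These shares are descriptions, since the word was found in the sites.

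Within the sites, the classes of higher signal held the word in more windows. In the 4 classes of rising signal it was in 23, 26, 39 and 50 of 935 windows, against 5, 10, 3 and 7 flanks. Intergenic sites had it in 65 of 1286 windows (5.05%) and intronic sites in 70 of 2165 (3.23%), with 10 and 13 flanks. It was present on all arms except chromosome 4, where 0 of 16 sites held it. Leaving out the 136 windows over 50% soft-masked as repeats left 127 of 3604 windows with the word against 23 flanks.

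The 6-letter word CAGTGC had its maxima to the sides of the summit. Per 1000 sites there were 32.6 matches in the 50 bp bin at the summit, 49.7 in the bin centred 100 bp below, and 47.3 and 46 in the bins centred 50 and 100 bp above. At the bins centred 500 bp below the value was 23.8. Distal IDR peaks had 20.1 matches per 1000 peaks at the summit and 73.1 in the bin 100 bp below, and unreplicated peaks 33.2 and 30.4. Within 100 bp of the sites' summits 629 matches lay at a median distance of 56.5 bp, and 52 windows held 2 or more, against 19 flanks. No test was made of this profile.

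**Figure D4:**
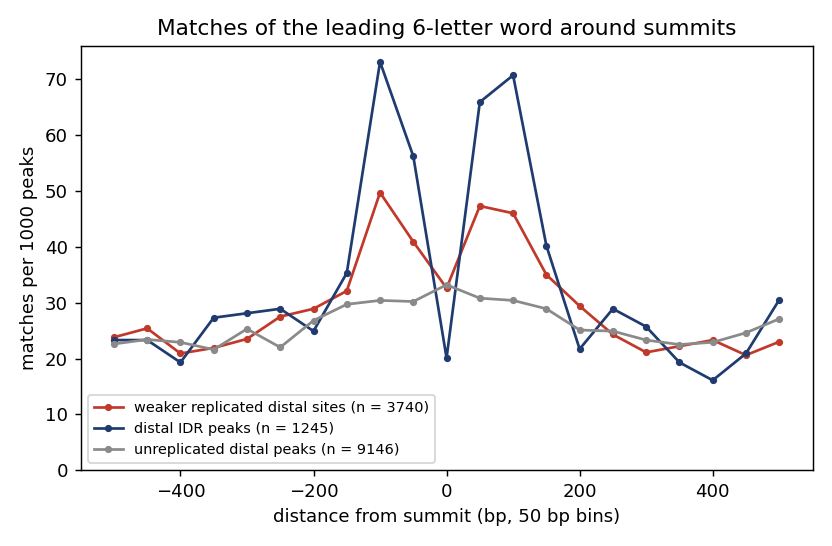
Matches of the word CAGTGC per 1000 peaks (vertical) in 50 bp bins by distance from the summit (bp, horizontal), for the weaker replicated distal sites, distal IDR peaks and unreplicated distal peaks. The sites show a maximum to each side of the summit (49.7 and 47.3) around 32.6 at the summit itself.

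Sites within genes were concentrated in long genes. Of 13945 protein-coding genes, 962 (6.9%) held at least 1 site within the gene and 123 (0.882%) held 5 or more. Sites but no distal IDR peak were in 625 genes (4.48%), and both were in 337 (2.42%). The sets differ in size, with 3740 sites and 1245 distal IDR peaks, so these counts are a description. The share rose with gene length: it was 0.335% of genes up to 5 kb, 16.2% up to 20 kb, 48.9% up to 50 kb, 58.9% up to 100 kb and 61% above. Only 5721 genes (41%) had any distal sequence, so the other genes behind the 6.9% could not hold a site. The part of distal length in the rise was not tested. Over all protein-coding genes there were 4.09 sites per 100 kb of distal sequence.

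The 10 genes with the most sites held 163 (4.36% of all). kirre (X, 2740384 to 3134532), whose immunoglobulin-domain protein acts in myoblast fusion, and hth (3R, 10507561 to 10639568), whose homeodomain protein is a Hox cofactor, held 21 sites each. Per 100 kb of distal sequence this was 6.88 in kirre and 16.7 in hth. fz2, a receptor for the Wnt protein Wingless, held 19 sites (22.5 per 100 kb), with pooled signals up to 90.1. luna, itself a gene of the Sp/KLF family, held 17 sites and 1 distal IDR peak, and pum, which encodes a translational repressor, 17 sites and 3. Eip75B, an ecdysone-induced nuclear receptor gene, held 15. sbb, a corepressor gene, held 14, at the highest density of the 10 (26.3 per 100 kb). jing, a zinc finger gene, SKIP, and cv-c, a RhoGAP gene, held 13 each.

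These counts moved with the match asked. A match asked in replicate 2 only or in replicate 1 only keeps every site and adds others. With these, hth held 41 and 44 sites, kirre 33 and 42, jing 32 and 36, and fz2 29 and 34. The other 6 held between 20 and 29 each. With summits within 50 bp jing held 4 and fz2 9.

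Single strong sites lay at genes of many kinds. The strongest was in an intron of bab1, a BTB-domain factor of leg and abdomen patterning, at 3L 1089241 to 1089616, with 100.6 in the pooled list, 51.9 in replicate 1 and 35.9 in replicate 2. Next was an intron of SNF4Agamma, the gamma subunit of AMP-activated kinase (3R 21193775 to 21194150), with 100.6, and 70.5 and 26.2 in replicates 1 and 2. An intronic site in Samuel (2L 11045006 to 11045381) had 100.3, and one in Pvf3, which encodes a ligand of the PDGF/VEGF-type receptor Pvr, had 100.1 (2L 7150818 to 7151193, window G+C 22.4% against 48.3% in the flank).

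The rest of the 10 strongest lay mostly between genes. Their pooled signals were 100.2 near CG13251, 100.1 near each of Reg-2, CG42831 and CG43245, and 100 near Ssadh and in CG45088 and CG6191. All 10 ranked between 2698 and 5289 in replicate 1 and between 2096 and 7042 in replicate 2. At 2 of them, near Reg-2 and Ssadh, an IDR summit lay within 1000 bp, at 685 and 536 bp.

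By list, signalling and segmentation genes had the densest sites. Of 51 matched genes of 5 signalling pathways (EGFR, Dpp, Hedgehog, Notch and Wnt) 23 held a site (45.1%, against 6.9% of all genes), with 11.8 sites per 100 kb of distal sequence, against 4.09 over all genes, led by fz2, fz (13 sites) and pnt (9 sites), the ETS factor of the EGFR pathway. Of 20 segmentation genes 5 did (10.4 per 100 kb), among them ftz-f1 with 5, opa with 2 and wg with 1 site of signal 94.7. Of 25 ecdysone and nuclear receptor genes 12 did (8.86 per 100 kb), with Eip75B, Hr4 (9 sites) and the receptor gene EcR (8 sites) in front. These lists hold longer genes than the genome, with median lengths of 12.4, 3.3 and 22.4 kb, against 2.2 kb for all genes. Among genes over 20 kb the shares with a site were 88.9%, 100% and 71.4%, against 52% of all genes of that length. The 100% rests on very few genes, since opa (17.2 kb) and wg (9.1 kb) are shorter than that. All segmentation genes together held 10 sites, 5 of them in ftz-f1, so their density rests on few sites.

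Polycomb system genes held some sites. Of 90 developmental regulators known as Polycomb targets 30 held a site (33.3%, 7.8 per 100 kb), against 6.9% and 4.09 per 100 kb over all genes, with hth, Lim1 (6) and NK7.1 (4) first. Of 25 Polycomb group genes 3 did (7.17 per 100 kb): jing (13), Su(z)2 (2) and Kdm2 (1). That density rests mostly on jing, with 13 of the 16 sites, and jing held only 4 with summits within 50 bp. Of 25 trithorax group genes 4 held a site (7.36 per 100 kb), with tna (6), kis (4), a chromodomain helicase gene, and trx (3), a histone methyltransferase gene, holding the most. Median gene lengths in these lists were 9.8, 7.1 and 6.5 kb, against 2.2 kb for all genes. Among genes over 20 kb 73.7%, 50% and 57.1% held a site, against 52% of all genes of that length. The 50% and 57.1% rest on few genes. Of the Polycomb group genes with a site only jing (119.8 kb) was over 20 kb, and at most 4 trithorax group genes of that length held one.

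The remaining lists, of adhesion, muscle, neural and glycolysis genes, are set against the 6.9% of all genes with a site and their 4.09 sites per 100 kb. Of 39 axon guidance and adhesion genes 23 held a site (59%), but at 4.76 per 100 kb, led by kirre, Sema1a (12) and Ten-a (9). The median length of these genes was 40.2 kb, against 2.2 kb for all genes. Mesoderm and muscle regulators had 7 of 19 genes (36.8%, 6.36 per 100 kb), with rols, how and Mef2 at 4, 4 and 3 sites. Neural regulators had 5 of 23 (21.7%, 4.17 per 100 kb), with brat at 6, fne at 3 and Rbp9 at 1. Median lengths of muscle and neural regulators were 7.8 and 4.9 kb. Among genes over 20 kb, 75% of adhesion, 75% of muscle and 50% of neural genes held a site, against 52% of all genes. The muscle and neural shares rest on few genes. None of 13 glycolysis genes held one, a count that leaves room for a share of up to 23.1%. Glycolysis genes had a median length of 3.6 kb. List densities were not tested.

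**Figure D5:**
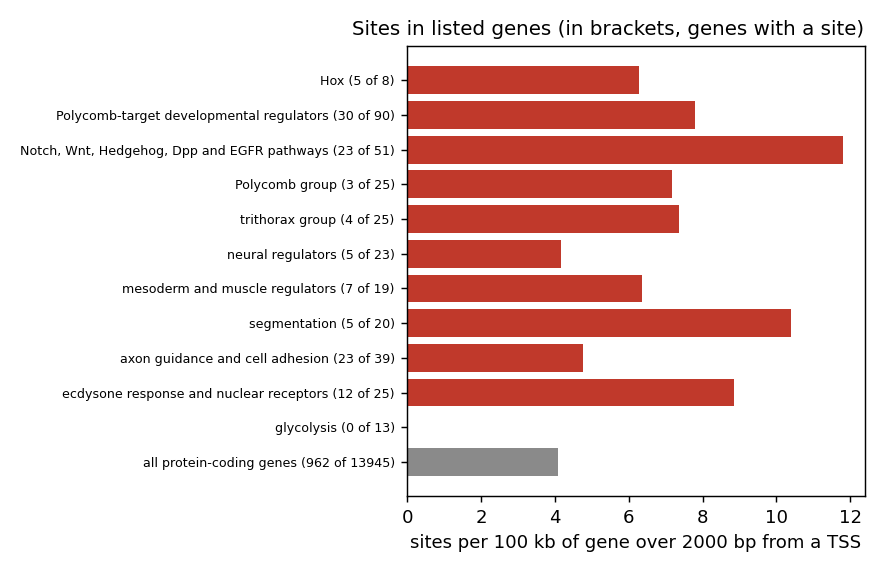
Weaker replicated distal sites per 100 kb of gene sequence over 2000 bp from a TSS (horizontal) for 11 gene lists and, in grey, all protein-coding genes (vertical), with the number of genes holding a site in brackets. Signalling genes reach 11.8 and all genes 4.09.

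Hox genes, which set segment identity and are the classic targets of Polycomb silencing, held sites in 5 of 8 cases (62.5%), at 6.29 per 100 kb. Over all genes the share was 6.9%, at 4.09 per 100 kb. Hox genes are long, with a median of 30.6 kb against 2.2 kb for all genes. Among genes over 20 kb, 66.7% of the few Hox genes and 52% of all genes held a site. The bithorax complex (3R 16656623 to 16972236) held 24 sites and 5 distal IDR peaks, 8.84 sites per 100 kb of distal sequence, against 4.17 over all distal sequence. Its sites had pooled signals between 27.8 and 93.2. In Ubx there were 4, with signals of 85.3, 64, 34.7 and 27.8. Between Ubx and abd-A lay 5, with signals of 92.2, 73.4, 54.4, 38.5 and 34.4, of which the strongest was at 3R 16769425 to 16769800, in an intron of a noncoding transcript.

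The region between abd-A and Abd-B held the most. In an abd-A intron lay 1 site (51.3). Inside the gene MSAmiP, which overlaps the iab region, lay 10 sites, with signals of 93.2, 88.1, 72.3, 68.7, 50.9, 50.7, 48.9, 41.5, 38.5 and 29.7. Past it lay 4 more, with 91, 59, 50.2 and 49.2. The strongest of the complex (3R 16861253 to 16861628) had 49.4 in replicate 1 and 40.1 in replicate 2, and the site at 3R 16886792 to 16887167 had 40.8 and 45.3.

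The Antennapedia complex (3R 6661427 to 6999228) held 20 sites and 7 distal IDR peaks, 7.59 sites per 100 kb. Antp held 7, with signals of 94.6, 67.8, 54.2, 50.5, 35.2, 35 and 25.1. pb held 4, with 93.7, 71.4, 60.4 and 38.1, and lab held 2, with 71.8 and 38.3. The 7 others lay outside protein-coding genes, with 96, 80.2, 68.7, 58, 40.9, 38 and 30.5.

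The strongest site of this complex was intergenic, 2254 bp from zen (3R 6751752 to 6752127), which encodes a homeodomain protein of dorsal patterning, with 96 in the pooled list, 57.5 in replicate 1 and 34.6 in replicate 2. The site in Antp with a signal of 94.6 (3R 6912604 to 6912979) lay 199 bp from an IDR summit.

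At en and inv, homeodomain genes of segment polarity with known Polycomb response elements, 6 sites lay in 48.2 kb of distal sequence (12.5 per 100 kb). Of these 3 were in inv introns, with 94.3, 47.8 and 42.6, and 3 between the genes, with 50.3, 37.4 and 36.6. The strongest (2R 11500405 to 11500780) had 51.6 in replicate 1 and 38.3 in replicate 2. Among the 1870 sites of higher signal only this 1 remained at the locus, and 14 and 12 at the bithorax and Antennapedia complexes. With a match asked in replicate 2 only or in replicate 1 only there were 10 and 12 sites at en and inv, 30 and 45 in the bithorax complex, and 29 and 40 in the Antennapedia complex.

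Starts of noncoding RNA genes lay near a small part of the sites. A start within 500 bp was found for 164 sites (4.39%, exact 95% interval 3.75 to 5.09), against 68 distal IDR peaks (5.46%; 0.803-fold, two-sided Fisher's exact test, p = 0.12) and 308 unreplicated peaks (3.37%; 1.3-fold, p = 0.0061). The fold against distal IDR peaks was 0.7 and 0.704, and passed, when a match in only 1 replicate was asked. By type, 128 were of the general ncRNA class, 24 tRNA, 6 snoRNA and 6 snRNA genes.

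Of the 5 strongest such sites 3 lay at tRNA genes, whose transcription by RNA polymerase III uses promoters inside the gene. They were 250 bp from tRNA:Gln-TTG-2-1 (signal 96.3), 68 bp from tRNA:Phe-GAA-1-5 (95.9) and 25 bp from tRNA:Glu-TTC-1-6 (95.4). The others lay 86 bp from lncRNA:CR43650 (96.3) and 257 bp from lncRNA:CR43715 (95.9). tRNA genes were near 0.642% of the sites and 0.667% of unreplicated peaks (0.962-fold, two-sided Fisher's exact test, adjusted p = 1).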

How the data were processed

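ChIP-seq peak lists of 2 replicates of 1 group were analysed. Per the listings deposited with the samples, a replicate's list came from that replicate's alignment and the pooled list from both alignments, the IDR list was derived from those lists, and both replicates had a single control. Per the labels the assembly is dm6. Not given in the sources used here: the aligner, the peak caller and the IDR threshold. The deposited peak signal is the authors' value on a linear scale, set against the control and used to describe or rank within a list. The deposited −log10 q-value was used as a description only, and the deposited summit offset gave each summit. Sites do not count as replicates, and samples were not compared.

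Coordinates were made 1-based. Genes came from the Ensembl annotation of BDGP6 and sequence from RefSeq release 6. Of 13949 protein-coding genes in both annotations 13944 had equal coordinates. Only the 6 arms 2L, 2R, 3L, 3R, 4 and X were used. Distal sequence is sequence over 2000 bp from a protein-coding TSS. Motifs and words were searched as exact strings on both strands in windows of 100 bp to each side of a summit. They were compared with flanks by exact McNemar tests and between sets of peaks by two-sided Fisher's exact tests, with Benjamini-Hochberg adjustment over each family and a threshold of 0.05. Intervals for shares are exact (Clopper-Pearson, 95%), and 3 counts give the upper limit for a share of 0.

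The members, motifs and gene lists were chosen with earlier results of these data known. The rule named the 10 strongest sites, the 10 genes with most sites, every site of 3 loci, the 5 strongest at noncoding RNA gene starts, 3 genes per list, the 10 words of largest fold in each direction and the 3 peaks nearest each limit. Printed windows were those of the 5 strongest sites off arm 2R, the strongest with each of 3 motifs, and the 4 with the leading word, the last chosen after its values were seen. Alternatives were other match and TSS distances, TSSs of every gene, a match asked in a single replicate, sites of higher signal only, sites away from IDR summits, other flanks, centres and windows. A match asked in a single replicate ignores the other replicate, so these sets include every site matched in both. The tests were checked on simulated windows drawn independently of each other. The simulation had no G+C difference between summits and flanks and no sites close together, so it does not cover these features. Software was matplotlib 3.10.9, pandas 2.3.3, SciPy 1.17.1 and NumPy 2.4.6 under Python 3.11.15.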

Additional observations from a re-analysis of the deposited data

How the results depend on the processing

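No paired analysis was possible because the 2 replicates form 1 group and no groups are compared. The number of sites was 2392 with summits within 50 bp, 2309 at over 5000 bp from a TSS and 1870 among sites of higher signal. With a match asked in only 1 replicate, which keeps every site matched in both, the number was 6482 to 8242. The intron fold against distal IDR peaks was 0.938 at over 1000 bp and 0.939 with TSSs of every gene, both passing, 1 at over 5000 bp, and 0.924 to 0.937 with 1 replicate. The intergenic fold, 1.03 in the report, was 0.995 at over 5000 bp, and 0.976 and 0.992 with 1 replicate. The noncoding RNA fold was 0.7 to 0.704 with 1 replicate, and has no value with TSSs of every gene. With summits within 50 bp, 3 motifs were higher than in flanks, 215 words of 6 letters were higher and 274 lower, and 3 motifs were lower than at unreplicated peaks. With 1 replicate, the 6-letter words numbered 245 to 292 higher and 305 to 373 lower, and the 8-letter words 138 to 140 higher, an alternative chosen after seeing the data. Against distal IDR peaks 6 motifs were lower at over 1000 bp, 1 higher at over 5000 bp, 0 in either direction among sites of higher signal (Fisher's exact test), and 6 to 7 higher and 6 to 7 lower with 1 replicate. Against unreplicated peaks 4 to 6 were higher and 3 to 4 lower with 1 replicate. The cause of these changes was not tested. Windows over 50% soft-masked were left out as an alternative added after seeing the data. The lists give no read counts, so what depth limits is unknown.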
